A study of Mus musculus with 7 samples.

Results

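Double-positive (DP) thymocytes that lacked Id2, Id3 and pTα together are described here by the genes whose 2 libraries lay outside the range of every other genotype in the series. A gene was a member when both libraries of the triple-deficient cells (L-DKO pTαKO, called LP) were above, or both were below, all 4 remaining libraries. Of 12063 genes measured, 1042 were above (8.64%) and 977 were below (8.1%), 2019 in all. LP mice carried floxed Id2 and Id3 alleles deleted by LckCre, a transgene active in thymocytes from the double-negative (DN) stage on, together with germline loss of pTα. L-DKO mice had the same LckCre deletion with pTα intact and gave 2 libraries like LP, pTαKO mice had the pTα loss alone and gave 1 library, replicate 2, and WT mice gave 1 library. Each library came from the thymus of 1 mouse, and the mice were 4 to 5 weeks old. The sorted cells were CD4+ CD8+ and lacked surface TCRγδ. The labels do not mention the CD1d tetramer, with which the study describes its DP cells in one place and not in another. The mice were littermates on a mixed B6/129 background, so with 1 or 2 mice for a genotype, strain differences that segregate between littermates cannot be told apart from the genotype. pTαKO replicate 1, which the submitters removed for poor sequencing, was not analysed here.

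Id2 and Id3 are inhibitors that bind E proteins such as E2A and keep them from DNA. E proteins bind short motifs called E boxes and drive the genes of early T cell development. pTα pairs with a rearranged TCR beta chain to form the pre-TCR, whose signal lets thymocytes divide and pass from the DN to the DP stage. DP cells then rearrange the TCR alpha chain, and most conventional and invariant natural killer T (iNKT) cells arise from them. PLZF, encoded by Zbtb16, is the transcription factor that gives iNKT cells and some γδ T cells their innate-like effector state. The study used this RNA-seq to examine the innate-like phenotype of DP cells that lacked the Id proteins and the pre-TCR together. Described here are transcripts whose level in those cells lay outside the other genotypes, which does not show that they depend on the joint loss.

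Values are log2(FPKM + 1), where FPKM counts the fragments of a gene relative to its length and to the mapped fragments of the library. The medians of the 6 libraries lay between 3.95 and 4.03, and correlations across genes, which are not independent replicates, lay between 0.852 and 0.914. The 20 most abundant entries held from 30.1% of all FPKM in WT to 72.7% in LP replicate 2. The defining genes of the sorted stage were high in every library. Cd4 was 9.23 and 9.08 in LP cells, 9.38 and 9.55 in L-DKO cells, 9.20 in pTαKO and 9.18 in WT, and Cd8a lay between 9.31 and 9.57 in all 6 libraries. Id3 was 1.96 and 3.18 in LP cells and 1.91 and 3.32 in L-DKO cells, against 5.25 in pTαKO and 6.22 in WT. Id2 was 1.92 and 1.00 in LP cells and 1.00 and 0.24 in L-DKO cells, against 1.87 in pTαKO and 3.56 in WT. Ptcra, which encodes pTα, was 5.35 and 5.87 in LP cells and 5.75 in pTαKO, against 6.35 and 6.62 in L-DKO cells and 5.06 in WT. The deleted part of Ptcra is not given in the sources used here, so this level does not check the deletion. Ddx3y, a Y-linked gene, was 4.21 and 0.63 in LP cells, 5.14 and 4.81 in L-DKO cells, 0.68 in pTαKO and 4.36 in WT, so it was low in LP replicate 2 and pTαKO and higher in the other 4 libraries.

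The distance between the groups was small for most members. The gap, taken as the distance between the nearer LP library and the nearest other library, had a median of 0.13 among genes above and 0.11 among genes below. It reached at least 1, a 2-fold step in FPKM + 1, for 48 genes above (0.398%) and 20 genes below (0.166%). Just inside the rule, Esrp1 cleared the other libraries by 0.00034 upward and Plekhg3 by 0.00024 downward, and just outside it Hn1 (upward) and Dip2b (downward) had gaps of -0.00034 and -0.00032. The single library nearest to LP was most often pTαKO, for 369 of the genes above and 324 of the genes below. The nearest was L-DKO replicate 1 for 198 above and 265 below, and L-DKO replicate 2 for 231 above and 149 below. Counted by genotype, L-DKO was thus nearest more often than pTαKO. It had 2 libraries and pTαKO had 1, so the counts by genotype do not show which was closer to LP. Without the pTαKO library 1872 genes were above and 1715 were below. With LP replicate 2 alone 2452 genes were above and 2331 below, and with LP replicate 1 alone 2504 were above and 2433 below. The 2 LP libraries differed from each other by a median of 0.16 among members above and 0.17 among members below, against 0.29 over all genes measured. Membership was set by these same values and is therefore a description without a test.

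In limma, LP minus the mean of the other 3 genotypes passed an adjusted p of 0.05 for 5 genes upward (0.0414%) and 2 genes downward (0.0166%). At an unadjusted p under 0.05 there were 530 upward and 421 downward of 12063 genes, and 377 members above and 316 members below were among these. Members were set by the same values, so this overlap was largely fixed in advance. The 7 calls rested mostly on genes listed at 0 in 1 or 2 genotypes. Yam1, Rn18s-rs5 and AC034285.4 were listed at 0 in pTαKO alone, and Mirlet7i and Slc25a12 were listed at 0 in pTαKO and WT. Gm24586 was listed at 0 in LP and pTαKO, and Tmcc3 was 4.19 and 4.11 in LP cells, 4.33 and 4.22 in L-DKO cells, 12.48 in pTαKO and 3.71 in WT. Tmcc3 was thus high in pTαKO only. AC034285.4 was the one member among the called genes, at 13.49 and 14.00 in LP cells, 12.86 and 13.07 in L-DKO cells, 0 in pTαKO and 11.61 in WT (5.56 ± 0.22, SE, adjusted p = 0.0101 in limma). With 2 LP libraries, 2 L-DKO libraries and 1 library each of pTαKO and WT, the limma fit had 2 residual degrees of freedom, and WT and pTαKO were taken to vary like the replicated genotypes. The members below are thus given by their values, and where an adjusted p is printed it is from limma over all 12063 genes.

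Genes higher in LP than in every other genotype included surface receptors, enzymes and transcription factors, many of them near 0 elsewhere. Ly6c1, a surface glycoprotein of memory-like and innate-like lymphocytes, was 5.26 and 5.76 in LP cells, against 1.09 and 1.09 in L-DKO cells, 2.71 in pTαKO and 2.48 in WT (3.41 ± 0.28, SE, adjusted p = 0.0713 in limma). It was thus lower in L-DKO than in WT and higher in LP than in both. Cyp26b1, an enzyme that degrades retinoic acid, was 5.11 and 5.01 in LP cells, against 2.76 and 2.22 in L-DKO cells, 0.52 in pTαKO and 0.23 in WT (3.98 ± 0.31, adjusted p = 0.068 in limma). Its L-DKO values lay between LP and the rest. Vdr, the vitamin D receptor, was 3.49 and 3.79 in LP cells, against 0.70 and 1.51 in L-DKO cells, 0.21 in pTαKO and 0.46 in WT. Izumo1r, a folate receptor family protein of T cells, was 4.97 and 5.51 in LP cells, against 3.23 and 2.59 in L-DKO cells, 0.81 in pTαKO and 2.78 in WT. The pTαKO library was the lowest for Izumo1r and for Vdr.

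**Figure D1:**
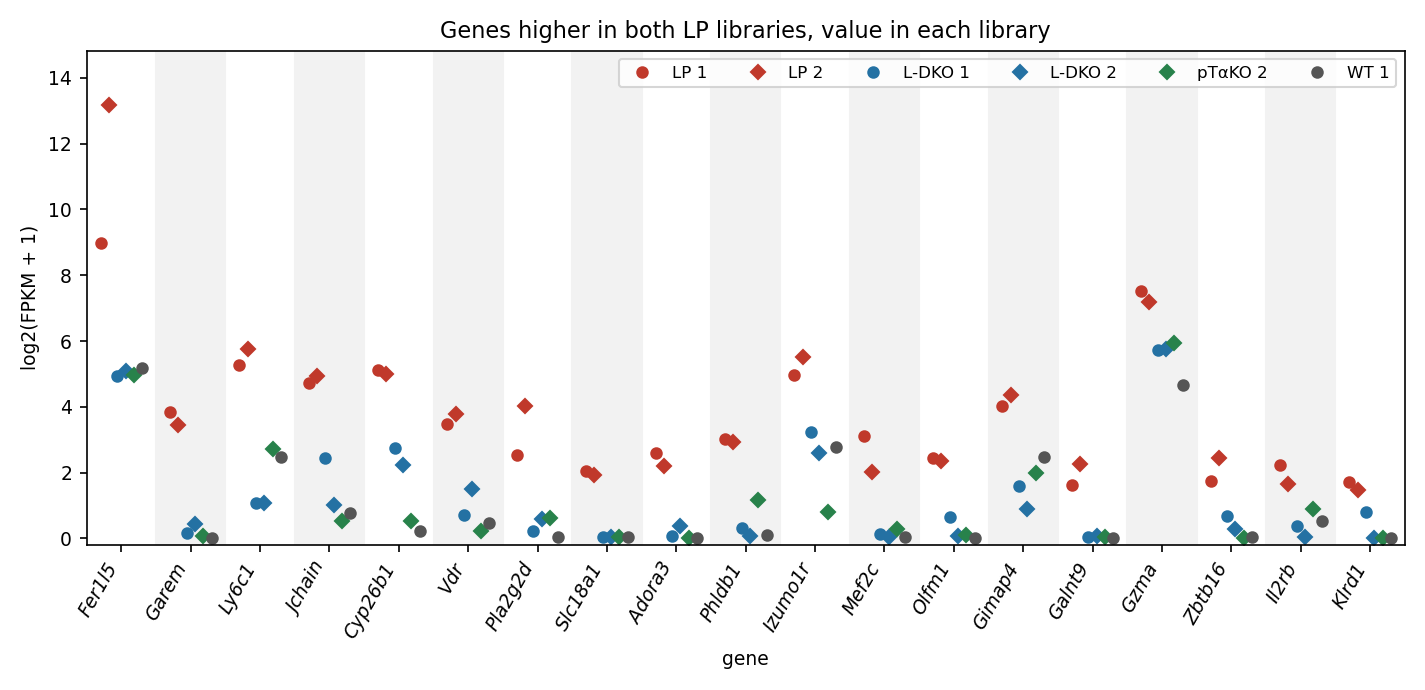
Level in each library, as log2(FPKM + 1), of the 15 named protein-coding genes with the largest gap above the other libraries, followed by Gzma and the markers Zbtb16, Il2rb and Klrd1. Each point is 1 library, and the 2 LP libraries lie above the 4 others for every gene shown.

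Several of these genes were all but silent outside LP. Garem, an adaptor of growth factor receptor signalling, was 3.84 and 3.43 in LP cells and at most 0.44 in the other libraries. Mef2c, a transcription factor of early lymphoid progenitors and B cells, was 3.12 and 2.02 in LP cells and at most 0.30 elsewhere. Slc18a1, a vesicular monoamine transporter, was 2.05 and 1.92 in LP cells and at most 0.05 elsewhere. Adora3, an adenosine receptor, was 2.59 and 2.2 in LP cells and at most 0.39 elsewhere, and Galnt9, a glycosyltransferase, was 1.62 and 2.25 in LP cells and at most 0.06 elsewhere. In these genes all 3 other genotypes lay together near the bottom of the scale. Olfm1, a secreted olfactomedin, was 2.44 and 2.34 in LP cells and at most 0.64 elsewhere, and Phldb1, a cytoskeletal adaptor, was 3.02 and 2.93 in LP cells and at most 1.16 elsewhere. Pla2g2d, a secreted phospholipase, was 2.54 and 4.02 in LP cells and at most 0.61 elsewhere. Fer1l5, a ferlin family gene, had the widest gap, with 8.99 and 13.18 in LP cells against 4.93 to 5.17 in the other libraries. Its LP libraries differed from each other by more than the lower of them differed from the rest (6.03 ± 1.19, adjusted p = 0.353 in limma).

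Transcripts without a named protein were also among the widest gaps. Atad3aos, annotated antisense to Atad3a, was 5.44 and 5.60 in LP cells, against 1.80 and 1.47 in L-DKO cells, 1.63 in pTαKO and 1.39 in WT. Its difference was 3.97 ± 0.28 (adjusted p = 0.0523 in limma), and it was the one gene called upward when the 4 other libraries were pooled as 1 group. Whether the counting used strand is not stated, so reads of Atad3a and of its antisense partner cannot be told apart. Gm21762 was 5.35 and 4.86 in LP cells, 0.21 and 0 in L-DKO cells, 1.34 in pTαKO and 0 in WT.

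Innate-like effector genes were often above the other libraries. Of 19 measured genes of the PLZF and innate-like effector list, 9 had both LP libraries above all others (47.4%, against 8.64% of all genes) and none had both below. Zbtb16, Il2rb, Klrd1 and Ly6c1, 4 of these 9, were markers given beforehand. The list named 37 genes, and genes low in every library can lack an entry. A gene high only in LP can thus be measured through LP alone, so the share was partly fixed in advance. The median difference was 0.59, against 0.00 over all genes, and no gene of the list passed limma over all genes. Zbtb16 was 1.74 and 2.44 in LP cells, against 0.69 and 0.29 in L-DKO cells, 0.02 in pTαKO and 0.03 in WT (1.91 ± 0.43, adjusted p = 0.412 in limma). Gzma encodes granzyme A of cytotoxic granules and was 7.52 and 7.19 in LP cells, against 5.72 and 5.75 in L-DKO cells, 5.95 in pTαKO and 4.66 in WT (1.90 ± 0.15, adjusted p = 0.068 in limma). The single losses thus both lay above WT for Gzma, while Zbtb16 was close to 0 in both pTαKO and WT. Il2rb, a chain of the IL-2 and IL-15 receptors, was 2.23 and 1.66 in LP cells, against 0.39 and 0.05 in L-DKO cells, 0.90 in pTαKO and 0.54 in WT. Klrd1, the CD94 chain of NK receptors, was 1.71 and 1.47 in LP cells, 0.79 and 0 in L-DKO cells, and listed at 0 in both pTαKO and WT. Zbtb16, Il2rb and Klrd1 were low in LP as well, at or under 2.44, whereas Gzma was high.

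Plac8, a small cysteine-rich protein of effector cells, was 5.25 and 4.85 in LP cells, against 2.56 and 3.39 in L-DKO cells, 4.31 in pTαKO and 2.49 in WT. S100a6, a calcium-binding protein, was 2.09 and 3.31 in LP cells, against 0.24 and 0.11 in L-DKO cells, 1.93 in pTαKO and 1.1 in WT. Ctsw, a cathepsin of cytotoxic cells, was 3.26 and 3.33 in LP cells and at most 2.53 elsewhere, and Prf1, which encodes perforin, was 2.39 and 2.02 in LP cells and at most 1.91 elsewhere. Other members of the list were not particular to LP. Ccl5, a chemokine of effector T cells, was 1.79 and 2.56 in LP cells, 0.11 and 0.17 in L-DKO cells, 1.79 in pTαKO and 2.93 in WT. Ly6c2 was 3.93 and 3.97 in LP cells, 1.81 and 2.36 in L-DKO cells, 4.37 in pTαKO and 1.70 in WT. Fcer1g and Tyrobp, signalling adaptors shared by NK and myeloid cells, were highest in pTαKO, at 4.66 and 5.29, with Fcer1g at 2.60 and 2.57 and Tyrobp at 3.40 and 3.27 in LP cells. Without the pTαKO library 12 of the 19 genes lay above (63.2%, against 15.5% of all genes). In bulk samples like these, fewer cells of a type and less RNA per cell cannot be told apart.

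Because E proteins act through E boxes, the 250 bases before the RefSeq start (GRCm38.p6) were read for Gzma, Vdr and Slfn1, which hold E box letters there, and for Klf2, which holds none. These 4 genes were chosen after their sequences were seen. The motifs searched were CAGCTG, which reads the same on both strands, and CACCTG with its complement CAGGTG. The motif letters do not overlap each other and stand in capitals.
Gzma, chr13:113100982-113101231, minus strand: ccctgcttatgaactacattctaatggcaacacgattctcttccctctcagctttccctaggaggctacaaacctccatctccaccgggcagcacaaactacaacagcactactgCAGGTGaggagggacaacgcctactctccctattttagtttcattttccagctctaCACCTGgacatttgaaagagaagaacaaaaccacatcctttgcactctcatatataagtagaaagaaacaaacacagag
Vdr, chr15:97908297-97908546, minus strand: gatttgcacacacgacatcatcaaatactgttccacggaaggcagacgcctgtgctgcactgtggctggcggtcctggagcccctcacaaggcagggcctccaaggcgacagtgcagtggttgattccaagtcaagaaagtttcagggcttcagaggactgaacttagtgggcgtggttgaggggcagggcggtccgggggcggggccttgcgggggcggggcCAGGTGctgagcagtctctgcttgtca
Slfn1, chr11:83116570-83116819, plus strand: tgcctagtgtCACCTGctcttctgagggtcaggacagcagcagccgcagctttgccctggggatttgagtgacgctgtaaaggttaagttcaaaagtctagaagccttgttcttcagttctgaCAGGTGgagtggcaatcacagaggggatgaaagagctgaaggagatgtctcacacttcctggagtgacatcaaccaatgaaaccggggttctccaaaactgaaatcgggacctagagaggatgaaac
Klf2, chr8:72318812-72319061, plus strand: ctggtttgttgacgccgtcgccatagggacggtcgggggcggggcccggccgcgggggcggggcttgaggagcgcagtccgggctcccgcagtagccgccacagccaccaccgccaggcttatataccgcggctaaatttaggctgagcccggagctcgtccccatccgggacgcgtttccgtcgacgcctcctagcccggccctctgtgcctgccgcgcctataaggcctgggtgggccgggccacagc
Counted from the first base of the motif to the start, the motifs lay 135 and 79 bases upstream in Gzma, 27 bases upstream in Vdr, and 240 and 127 bases upstream in Slfn1. Of all 32851 promoters in the table, 13.0% held CAGCTG and 17.2% held CACCTG or CAGGTG in the same 250 bases. Only 68.8% of the genes above, 66.8% of the genes below and 68.9% of all genes measured had a promoter entry, under the minimum of 80% set for such a comparison, so shares of members were not compared. A match of letters is a description and not a bound site.

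Genes linked to leaving the cortex, to positive selection and to mature T cells were split, with more above than below. Of 22 egress, migration and adhesion genes 7 were above (31.8%) and 3 below (13.6%). Of 17 markers of mature single-positive T cells 6 were above (35.3%) and 2 below (11.8%). Of 46 genes that follow TCR signalling 9 were above (19.6%) and 2 below (4.35%). Over all genes the shares were 8.64% above and 8.1% below. With a mean FPKM of at least 5, 1 of 8 mature T cell markers was above and 1 below (12.5% each way). Of 32 genes that follow TCR signalling 4 were then above (12.5%) and 1 below (3.12%). The egress list then had 5 of 18 above (27.8%) and 3 below (16.7%), against 8.48% and 8.47% of all genes. The lists share genes, and Klf2, Ccr7 and Itgb7 were counted above in both the egress and the TCR signalling list. The list medians were 0.09, 0.22 and 0.16, and in the egress list 11 genes had a higher and 11 a lower mean in LP. Among members below, Runx3 was 1.12 and 1.61 in LP cells and between 1.65 and 2.14 elsewhere. Itga6 was 4.98 and 5.00 in LP cells and between 5.10 and 5.57 elsewhere, and Itgal was below by a gap of 0.003. Klf2, the transcription factor that drives thymic egress genes, was 3.56 and 3.37 in LP cells, against 1.79 and 1.95 in L-DKO cells, 0.86 in pTαKO and 1.64 in WT. Ccr7, the chemokine receptor of cells moving to the medulla, was 3.04 and 3.05 in LP cells, against 2.08 and 1.95 in L-DKO cells, 1.47 in pTαKO and 1.5 in WT. Both were lowest in pTαKO. Cd53, a tetraspanin of leukocytes, was 4.76 and 5.11 in LP cells, against 3.27 and 2.11 in L-DKO cells, 3.30 in pTαKO and 3.34 in WT. Gimap4 and Gimap3, neighbouring GTPase genes on chromosome 6 that act in lymphocyte survival, had like patterns. Gimap4 was 4.03 and 4.36 in LP cells, against 1.59 and 0.91 in L-DKO cells, 1.99 in pTαKO and 2.46 in WT. Gimap3 was 3.21 and 3.45 in LP cells, against 0.05 and 0.08 in L-DKO cells, 0.89 in pTαKO and 2.25 in WT. For both genes L-DKO was the lowest genotype and LP the highest.

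Slfn1, a Schlafen gene of resting T cells, was 3.05 and 2.94 in LP cells, against 1.92 and 1.72 in L-DKO cells, 0.70 in pTαKO and 1.00 in WT. Cd40lg, a ligand of helper T cells, was 1.98 and 3.08 in LP cells and at most 1.37 elsewhere. Itga4 and Itgb7, the chains of the α4β7 integrin, were both above. Itga4 was 5.64 and 5.89 in LP cells, against 4.80 and 4.37 in L-DKO cells, 5.19 in pTαKO and 4.79 in WT, and Itgb7 was 3.47 and 3.73 in LP cells and between 2.40 and 2.95 elsewhere. Markers of TCR-signalled cells that overlapped included Cd69, at 3.29 and 3.39 in LP cells, 4.91 and 4.47 in L-DKO cells, 3.16 in pTαKO and 4.19 in WT. Cd5, whose level follows TCR signal strength, was 6.0 and 5.67 in LP cells, 7.37 and 7.45 in L-DKO cells, 5.16 in pTαKO and 7.05 in WT. Both thus sat near the pTαKO level in LP.

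Genes of iNKT cell development also contained more members above than below. Of 33 genes 9 were above (27.3%, against 8.64% of all genes) and 3 below (9.09%, against 8.1%). Zbtb16 and Il2rb, 2 of these 9, were markers given beforehand and reached 1.016 FPKM, the level of every entry in some library, in LP alone. The share was thus partly fixed in advance. With a mean FPKM of at least 5, 6 of 26 genes were above (23.1%, against 8.48% of all genes) and 3 below (11.5%, against 8.47%). Besides Zbtb16, Il2rb, Vdr and Izumo1r the genes above had small gaps. Slamf6, a receptor that DP cells use to select iNKT cells, was 6.46 and 6.61 in LP cells, against 6.09 and 6.08 in L-DKO cells, 6.38 in pTαKO and 5.93 in WT, whereas its partner Slamf1 was 4.22 and 4.22 in LP cells, against 4.46 and 4.64 in L-DKO cells, 4.34 in pTαKO and 4.87 in WT. The pair thus stood on opposite sides of the other libraries. Lef1, a transcription factor of DP cells, was 7.81 and 8.15 in LP cells and between 7.30 and 7.63 elsewhere. Bcl2l1, which encodes the survival factor of DP cells Bcl-xL, was 7.76 and 7.60 in LP cells and between 7.28 and 7.42 elsewhere. Of 37 DP identity genes 4 were above (10.8%, against 8.64% of all genes) and 5 below (13.5%, against 8.1%), with a median of -0.04 over members that went both ways. An innate-like signature that the study compiled mainly from public Immgen arrays of WT populations gave a pair of lists, genes high and genes low in iNKT and γδNKT cells. They had 15 of 84 and 4 of 40 genes above (17.9% and 10%, against 8.64% of all genes) and 5 genes below in each (5.95% and 12.5%, against 8.1%).

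TCRγδ+ cells had been gated out. Genes of γδ T cells were nonetheless above in 4 of 18 (22.2%, against 8.64% of all genes), with none below and a median of 0.72. The 4 were Zbtb16, 5830411N06Rik, Sox13 and Trdc. The list named 34 genes, and every entry reached 1.016 FPKM in some library. Zbtb16, a marker given beforehand, and 5830411N06Rik reached that level in LP alone, so the share was partly fixed in advance. With a mean FPKM of at least 5, 1 of 6 genes was above (16.7%, against 8.48% of all genes), with a median of -0.04. The transcript 5830411N06Rik was 2.86 and 3.34 in LP cells, against 0.21 and 0.12 in L-DKO cells, 0.43 in pTαKO and 0.32 in WT. Sox13, a transcription factor of γδ T cell precursors, was 2.12 and 2.13 in LP cells, against 0.53 and 0.47 in L-DKO cells, 1.72 in pTαKO and 0.02 in WT. Trdc, the delta constant region, was 4.84 and 5.13 in LP cells, against 4.36 and 4.37 in L-DKO cells, 4.67 in pTαKO and 4.31 in WT. For Sox13 and Trdc the pTαKO library was the next highest, and the list's summed level was 166 and 182 FPKM in LP, 111 and 147 in L-DKO cells, 227 in pTαKO and 99.1 in WT. Without LP replicate 2 the list median was 0.12.

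Some Notch genes, among them Notch1, Hes1 and Dtx1, were high in LP and in pTαKO alike and so did not meet the rule. Of 15 measured genes 2 were above, Lfng and Heyl (13.3%, against 8.64% of all genes), none were below, and 12 had a higher mean in LP, with a list median of 0.51. Others of the list did not share the pattern. Nrarp, a feedback inhibitor of Notch, was 1.08 and 0.64 in LP cells, 1.19 and 1.62 in L-DKO cells, 0.99 in pTαKO and 1.65 in WT. The receptor gene Notch2 and Rbpj, the DNA-binding partner of Notch, had mean differences of -0.04 and 0.07. Notch1 was 2.92 and 3.21 in LP cells and 3.89 in pTαKO, against 0.85 and 0.53 in L-DKO cells and 0.46 in WT. Hes1, a direct target of Notch, was 3.88 and 3.55 in LP cells and 4.07 in pTαKO, against 1.66 and 0.55 in L-DKO cells and 0.97 in WT. Dtx1, another target and a regulator of the pathway, was 7.30 and 7.70 in LP cells and 7.50 in pTαKO, against 5.59 and 5.73 in L-DKO cells and 3.67 in WT. In LP minus WT, Dtx1 rose by 3.83 ± 0.23 (adjusted p = 0.0335 in limma). Lfng, the glycosyltransferase that tunes Notch receptors, was 3.18 and 2.57 in LP cells, 1.61 and 0.13 in L-DKO cells, 2.38 in pTαKO and 0.67 in WT. The list's levels summed to 343 and 408 FPKM in LP, 187 and 153 in L-DKO cells, 411 in pTαKO and 93.2 in WT.

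Among 17 genes of early progenitors and the DN stage 3 were above and 3 below, with a median of 0.02 (17.6% each way, against 8.64% and 8.1% of all genes). Mef2c is described above. Hoxa7, a homeobox gene of haematopoietic progenitors, was 3.56 and 3.49 in LP cells, against 2.58 and 2.88 in L-DKO cells, 1.89 in pTαKO and 2.43 in WT. On the other side Cd24a, a surface protein of immature thymocytes, was 6.66 and 6.65 in LP cells, against 6.78 and 6.83 in L-DKO cells, 6.87 in pTαKO and 7.13 in WT. Dntt, which adds nucleotides at receptor junctions, was 9.54 and 9.52 in LP cells and between 9.57 and 9.73 elsewhere.

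Cell cycle genes were often below the other libraries. Of 51 measured genes 34 had both LP libraries below all others (66.7%, against 8.1% of all genes), 1 had both above, and 49 had a lower mean in LP. The median difference was -0.59, against 0.00 over all genes. The list's median level was 4.46 and 4.97 in LP cells, against 5.09 and 5.48 in L-DKO cells, 5.10 in pTαKO and 5.38 in WT. LP replicate 1 was the lower of the 2 LP libraries. Mki67, a marker of dividing cells, was 4.72 and 5.65 in LP cells, against 6.0 and 5.90 in L-DKO cells, 5.94 in pTαKO and 6.33 in WT. Cdk1, the mitotic kinase, was 5.52 and 5.96 in LP cells, against 6.16 and 6.62 in L-DKO cells, 6.71 in pTαKO and 6.90 in WT. Pcna, the clamp of DNA replication, was 7.14 and 7.23 in LP cells, against 7.68 and 8.05 in L-DKO cells, 7.47 in pTαKO and 8.0 in WT. Replication, mitotic and G1/S genes were all represented.

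Mcm5, a subunit of the replicative helicase, was 4.68 and 4.97 in LP cells, against 5.51 and 5.48 in L-DKO cells, 5.36 in pTαKO and 5.88 in WT (-0.76 ± 0.16, adjusted p = 0.37 in limma). Cdc6 and Cdc45, which load and start the helicase, were also below, with Cdc6 at 2.88 and 3.20 in LP cells and between 3.60 and 4.41 elsewhere. E2f1, a transcription factor of S-phase genes, was 3.23 and 2.93 in LP cells and between 3.68 and 3.86 elsewhere. Ccnd3, the D-type cyclin that thymocytes need after the pre-TCR signal, was 10.02 and 9.98 in LP cells, against 10.72 and 10.80 in L-DKO cells, 10.06 in pTαKO and 10.32 in WT. Its LP and pTαKO values were close, and L-DKO was the highest. Cenpf, a kinetochore protein, was the exception above, at 3.83 and 3.80 in LP cells and between 3.29 and 3.60 elsewhere. Of 26 histone genes 5 were below (19.2%, against 8.1% of all genes) and 1 above (3.85%, against 8.64%). No cell cycle gene passed limma over all genes.

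**Figure D2:**
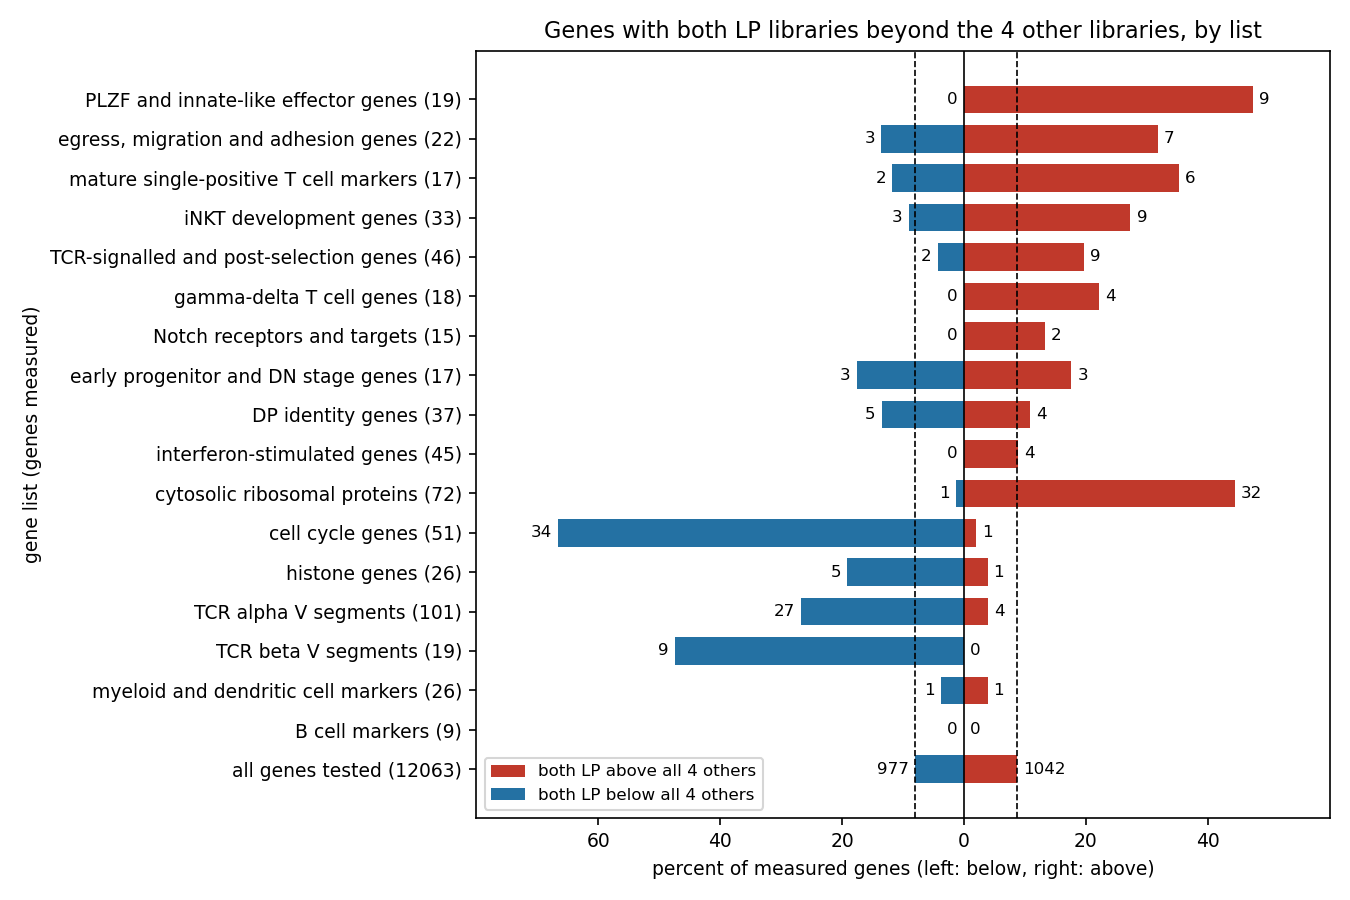
Share of the measured genes of each list with both LP libraries above (right) or below (left) the 4 other libraries, in percent, with the number of genes beside each bar. Dashed lines mark the shares over all 12063 genes, 8.64% above and 8.1% below, and cell cycle genes reach 66.7% below.

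The named protein-coding genes furthest below the other libraries had varied functions. Metap1d, a mitochondrial methionine aminopeptidase, was 0.57 and 0.58 in LP cells, against 3.90 and 3.24 in L-DKO cells, 3.17 in pTαKO and 2.74 in WT (-2.59 ± 0.34, adjusted p = 0.198 in limma). Chchd10, a protein of the mitochondrial intermembrane space, was 0.12 and 0.12 in LP cells, against 1.71 and 3.06 in L-DKO cells, 2.14 in pTαKO and 1.91 in WT. Glis2, a zinc finger transcription factor, was 0.91 and 0.52 in LP cells, against 2.22 and 2.77 in L-DKO cells, 2.56 in pTαKO and 2.50 in WT. In these genes the 3 other genotypes lay close together and both LP libraries lay near the bottom of the scale. Csrp2, a LIM domain protein, was 0.04 and 0 in LP cells and at least 1.14 elsewhere, and Slc25a24, a mitochondrial carrier, was 0.05 and 0 in LP cells and at least 1.06 elsewhere. Lrrc23, a leucine-rich repeat protein, was at 0 in LP cells and at 0.92 or more elsewhere.

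Other genes below stood at a higher level. Ufm1, a ubiquitin-like modifier, was 4.32 and 4.73 in LP cells, against 5.91 and 5.59 in L-DKO cells, 5.73 in pTαKO and 5.53 in WT. Spidr and Brip1, which act in repair of DNA by recombination, were below as well. Spidr was 2.39 and 2.28 in LP cells, against 3.52 and 4.18 in L-DKO cells, 4.64 in pTαKO and 3.15 in WT, and Brip1 was 0.76 and 0.99 in LP cells and at least 1.77 elsewhere. Tuba4a, an alpha tubulin, was 3.76 and 3.78 in LP cells and at least 4.58 elsewhere, and Gng2, a G protein subunit, was 1.92 and 1.26 in LP cells and at least 2.68 elsewhere. Ptger4, a prostaglandin receptor, was 2.45 and 1.71 in LP cells and at least 2.94 elsewhere.

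**Figure D3:**
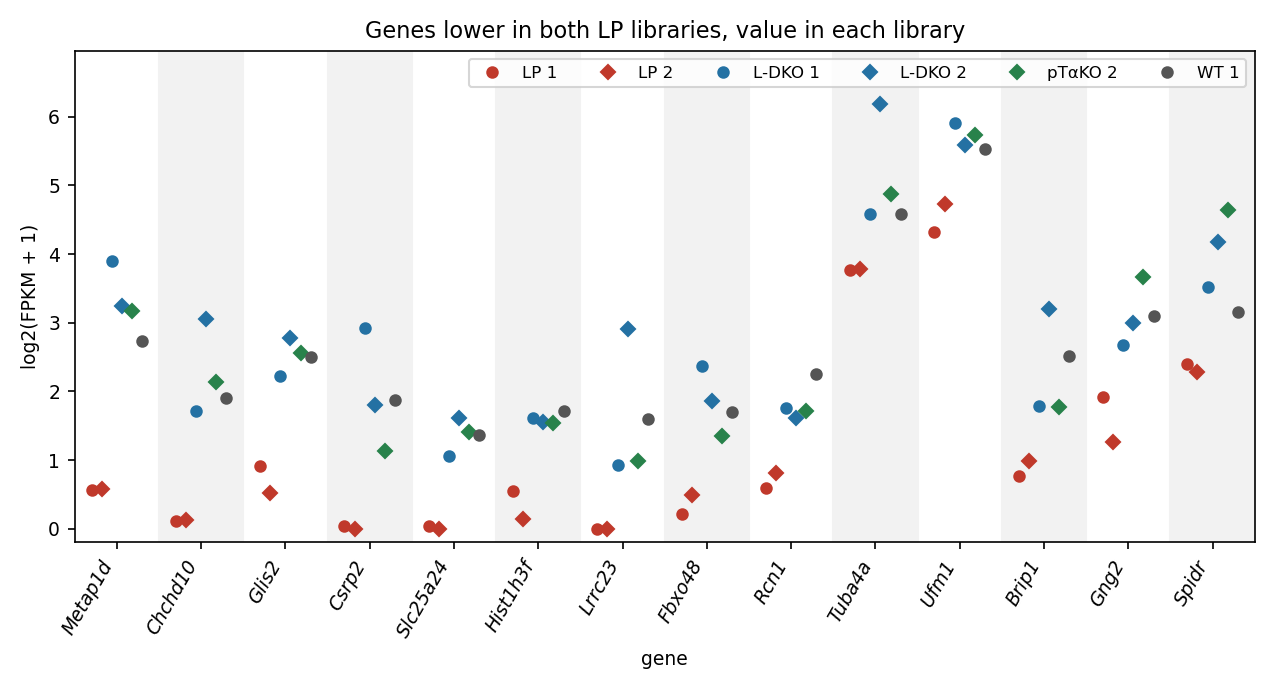
Level in each library, as log2(FPKM + 1), of named protein-coding genes with the largest gaps below the other libraries. Each point is 1 library, and both LP libraries lie under the 4 others, close to 0 for Chchd10, Csrp2, Slc25a24 and Lrrc23.

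TCR variable segments made up 10 of the 20 genes with a gap of at least 1 below. Of 101 alpha V segments 27 were below (26.7%, against 8.1% of all genes) and 4 above (3.96%, against 8.64%), with a median of -0.84. Of 7 alpha J segments 3 were below (42.9%). The alpha V segments together held 1079 and 728 FPKM in LP and 934 in pTαKO, against 1536 and 1802 in L-DKO cells and 1621 in WT. Their median level was 3.02 and 2.56 in LP and 3.04 in pTαKO, against 3.79 and 3.58 in L-DKO cells and 3.76 in WT. As a list they were thus low in pTαKO as well as in LP. Trav6-4 was 1.12 and 0.19 in LP cells, against 3.64 and 5.46 in L-DKO cells, 3.51 in pTαKO and 2.75 in WT. Trav19 was 0.65 and 0.88 in LP cells, against 2.67 and 4.36 in L-DKO cells, 2.40 in pTαKO and 4.14 in WT. The 4 segments above were Trav15d-1-dv6d-1, Trav15n-1, Trav13-3 and Trav11. Trav15d-1-dv6d-1 was 5.79 and 5.28 in LP cells, against 1.91 and 3.41 in L-DKO cells, 3.85 in pTαKO and 2.58 in WT, and its near copy Trav15n-1 was 5.67 and 5.20 in LP cells and at most 3.97 elsewhere. These are segments of the Trav15 family, which can also join to delta chains. Segments that end in d or n are near-identical copies among which reads can be split, so the value of any one copy is uncertain. Trav11, the segment of the invariant iNKT receptor, was 3.66 and 2.65 in LP cells, against 2.65 and 0 in L-DKO cells, 0.28 in pTαKO and 1.99 in WT, and its copy Trav11d overlapped.

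Beta V segments were low in LP and nearly as low in pTαKO. Of 19 segments 9 were below (47.4%, against 8.1% of all genes) and none above, with a median of -1.12. Together they held 1965 and 1684 FPKM in LP and 2048 in pTαKO, against 4694 and 5017 in L-DKO cells and 5194 in WT. Trbv23 was 3.95 and 3.49 in LP cells, against 5.84 and 5.93 in L-DKO cells, 5.21 in pTαKO and 6.39 in WT (-2.11 ± 0.19, adjusted p = 0.0837 in limma). Trbv1 was 5.94 and 5.93 in LP cells, against 7.83 and 7.92 in L-DKO cells, 6.28 in pTαKO and 7.86 in WT (-1.40 ± 0.11, adjusted p = 0.0712 in limma). For Trbv1 and for the sum, LP lay much nearer to pTαKO than to L-DKO or WT, whereas for Trbv23 the gap between LP and pTαKO, the nearest library, was 1.26. The constant region Trbc1 overlapped, at 11.07 and 10.84 in LP cells, 11.03 and 11.01 in L-DKO cells, 10.90 in pTαKO and 10.93 in WT.

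**Figure D4:**
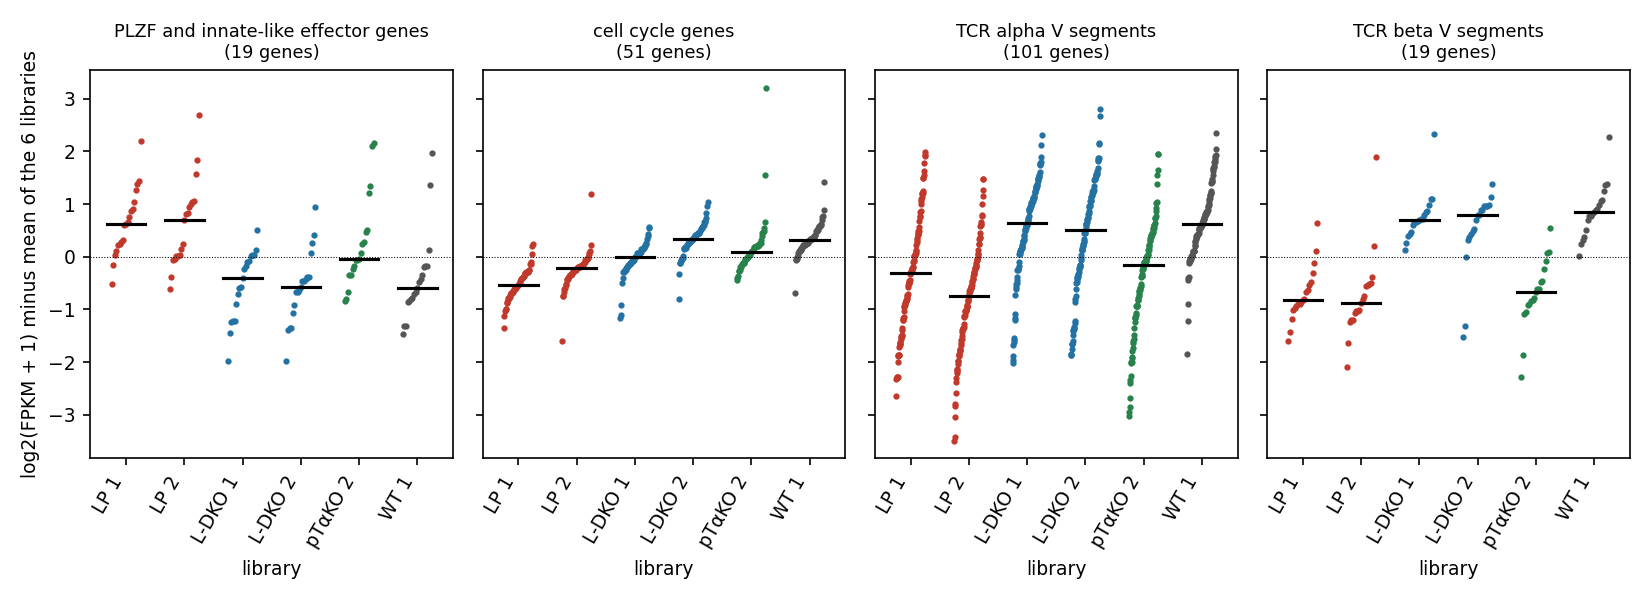
Genes of 4 lists in each library, each point being log2(FPKM + 1) of a gene minus that gene's mean over the 6 libraries, with the list median as a bar. Cell cycle genes are lowest in the 2 LP libraries, whereas beta V segments are low in the LP and pTαKO libraries.

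Cytosolic ribosomal protein genes were above in 32 of 72 (44.4%, against 8.64% of all genes) and below in 1 (1.39%, against 8.1%), by small amounts. Their median difference was 0.17, and they held 60930 and 58920 FPKM in LP, against 48300 and 53920 in L-DKO cells, 55990 in pTαKO and 51600 in WT. Rpl23 was 8.87 and 8.90 in LP cells and between 8.52 and 8.64 elsewhere, and Rps4x was 10.03 and 10.04 in LP cells and between 9.70 and 9.88 elsewhere. With quantile normalization 21 of the 72 were above (29.2%, against 7.97% of all genes). Of 45 interferon-stimulated genes 4 were above, a share of 8.89% that was close to the 8.64% of all genes, and none were below, with a median of 0.16. Isg15, a ubiquitin-like protein induced by interferon, was 6.05 and 5.69 in LP cells, against 4.57 and 4.36 in L-DKO cells, 5.59 in pTαKO and 4.41 in WT. Without the pTαKO library 17 of these genes were above (37.8%, against 15.5% of all genes). Of 24 heat shock and immediate early genes none lay beyond the other libraries, against 8.64% above and 8.1% below over all genes. Of 25 genes of survival and death 3 were above (12%, against 8.64% of all genes) and none below. They were Bcl2l1, the survival factor given above, and Pmaip1 and Bbc3, which encode the death factors Noxa and Puma. Pmaip1 was 2.18 and 2.22 in LP cells and between 1.24 and 1.52 elsewhere. Bbc3 was 5.31 and 5.36 in LP cells, 5.29 and 5.16 in L-DKO cells, 4.24 in pTαKO and 4.37 in WT, so its gap of 0.03 to L-DKO was narrow.

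The level in LP was set beside the sum of the single losses, the L-DKO mean plus pTαKO minus WT on the log2 scale, which is what independent effects would give. Because members were chosen for lying outside all 3 other genotypes, this is a description of them and no test. Of the 48 genes with a gap of at least 1 above, 36 had both L-DKO and pTαKO within 1 of WT. The median L-DKO minus WT was 0.07 and the median pTαKO minus WT was 0.07 over the 48 genes, while the median LP minus WT was 2.34. Over the 20 genes below, 11 had both single losses within 1 of WT, and the medians were 0.52, -0.09 and -1.83 in the same order. Gzma stood near the sum, at 7.35 in LP cells against a sum of 7.02, whereas Zbtb16 was 2.09 against 0.48 and Izumo1r was 5.24 against 0.94. Ly6c1 was 5.51 against 1.32 and Cyp26b1 was 5.06 against 2.78. In limma the interaction over all genes was called for 5 genes upward (0.0414%) and 1 downward (0.00829%). At an unadjusted p under 0.05 there were 236 upward and 302 downward of 12063 genes, a number that such a threshold can give with no interaction. The called genes were AC034285.2, AC034285.4, Gm8730, Rn18s-rs5 and Yam1 upward and Tmcc3 downward, of which AC034285.4 alone was a member.

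**Figure D5:**
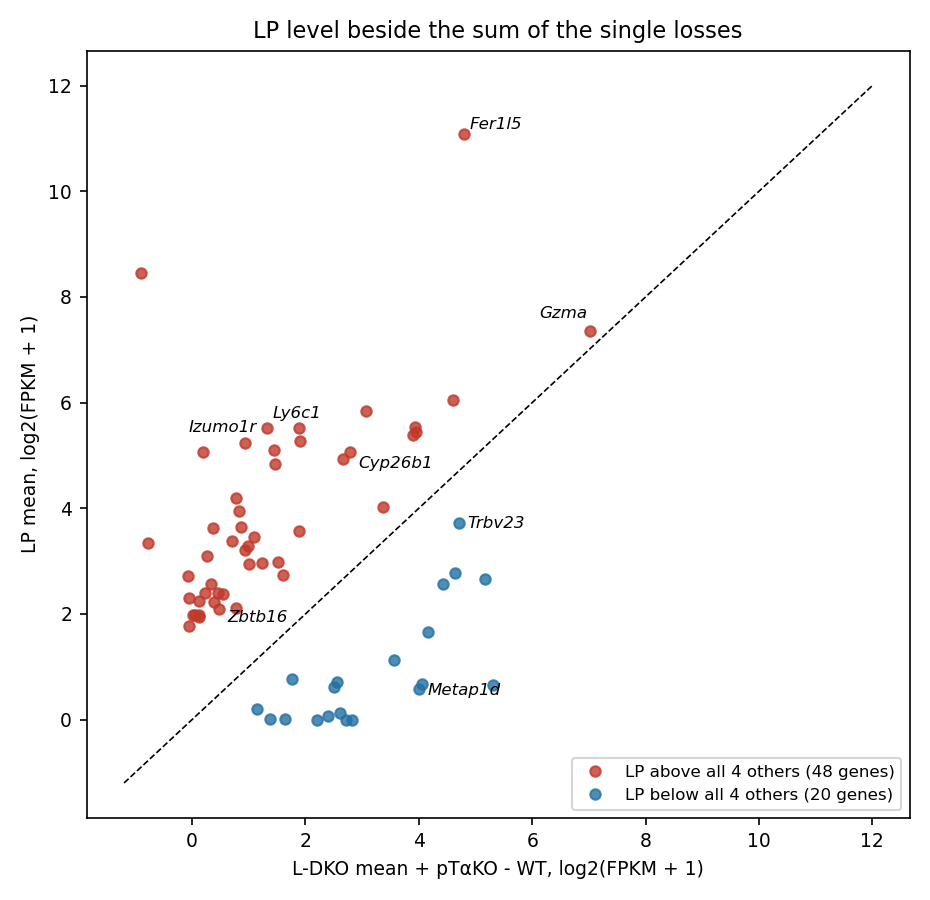
LP mean against the sum of the single losses (L-DKO mean plus pTαKO minus WT), both in log2(FPKM + 1), for the 48 genes above and 20 genes below with a gap of at least 1. The dashed line marks equality, and every gene above lies over it while every gene below lies under it.

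Set against each genotype alone, LP gave few calls in limma. LP minus L-DKO was called for 1 gene upward (0.00829%) and 1 downward (0.00829%), Gm8730 and Gm24586. LP minus pTαKO was called for 9 genes upward (0.0746%) and 3 downward (0.0249%), and all 9 upward genes were listed at 0 in pTαKO. Tmcc3 and Dis3l2 were among the downward genes. LP minus WT was called for 3 genes upward (0.0249%), Dtx1, Mirlet7i and Slc25a12, and 4 downward (0.0332%), Gm24586, Fam120c, Gm4955 and Sh3bp2. Of these, Fam120c, Gm4955 and Sh3bp2 had WT as the one high library, at 12.79, 10.27 and 11.17.

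Markers of other cell types were read in the same libraries. B cell markers were above in 0 of 9 genes and below in 0, against 8.64% and 8.1% of all genes. They held 235 and 192 FPKM in LP, 166 and 170 in L-DKO cells, 499 in pTαKO and 223 in WT. Cd74, an antigen presentation gene of B and dendritic cells, was 4.81 and 4.33 in LP cells, 3.21 and 3.03 in L-DKO cells, 6.87 in pTαKO and 4.47 in WT. Of 26 myeloid and dendritic cell markers 1 was above and 1 below (3.85% each way, against 8.64% and 8.1% of all genes). Their sum was 521 and 503 FPKM in LP, 368 and 371 in L-DKO cells, 1179 in pTαKO and 312 in WT. Without the pTαKO library 17 of the 26 were above (65.4%, against 15.5% of all genes). Lyz2, a lysozyme of myeloid cells, was 4.78 and 5.26 in LP cells, 3.19 and 3.72 in L-DKO cells, 5.09 in pTαKO and 3.19 in WT. The part of these markers in the innate-like and Mef2c results was not tested. Plasma cell markers were above in 3 of 5 (60%, against 8.64% of all genes), namely Jchain, Sdc1 and Xbp1. Jchain, the joining chain of secreted antibody, was 4.72 and 4.94 in LP cells, against 2.46 and 1.00 in L-DKO cells, 0.52 in pTαKO and 0.78 in WT, and Sdc1 was 2.36 and 2.04 in LP cells and at most 1.11 elsewhere. The antibody light chain gene Igkc overlapped, at 1.5 and 2.32 in LP cells, 2.63 and 0 in L-DKO cells, 0.21 in pTαKO and 2.09 in WT. The plasma cell list summed to 305 and 277 FPKM in LP, 246 and 226 in L-DKO cells, 207 in pTαKO and 97.8 in WT, and its part in the Jchain result was not tested. Of 8 erythroid and 7 stromal markers none were above, against 8.64% of all genes, and lists this short can hold none at that share. Of the stromal markers 1 was below (14.3%, against 8.1% of all genes), and of the erythroid markers none.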

How the data were processed

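RNA was enriched with oligo(dT) and sequenced from DP thymocytes. Per the submitters' processing notes, the tools were Trimmomatic 0.32 for trimming, TopHat2 2.0.9 for alignment (mm10, GRCm38) and Cufflinks 2.2.0 for quantification. The authors deposited log2 FPKM and dropped low quality genes in R. How those were defined is not given in the sources used here. The deposited log2 values are 0 or positive and were taken to be log2(FPKM + 1). FPKM is relative, so a few abundant entries can shift the others, and sequencing depth is unknown.

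Of 7 labelled samples, 6 had a column. The 13097 entries held 12092 symbols, and each symbol was represented by its most abundant entry (mean FPKM). Hyphens were restored in 297 symbols. A minimum mean FPKM of 0.5 left 12063 genes. Every entry reached 1.016 FPKM in some library, so list genes that were low throughout may be missing. Libraries were not rescaled. The authors' columns of means and differences were not used.

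A model with 1 mean per genotype was fitted with limma 3.58.1 (lmFit, then eBayes with a trend, R 4.3.3), with Benjamini-Hochberg adjustment over all genes and a threshold of 0.05. The main contrast was LP minus the mean of the other 3 genotype means. The fit was tested on simulated data. Since each library is 1 mouse, p-values rest on the spread between mice within LP and within L-DKO. WT and pTαKO had 1 library each and add nothing to that spread. Genes were named as the 4 markers given (Zbtb16, Il2rb, Klrd1, Ly6c1), the targeted genes, the 15 named protein-coding members with the largest gap in each direction, up to 6 members per list and direction with any member needed to show what a list did, and every gene called where 5 or fewer were. A few genes that the rule names are not reported here. Atad3aos, Gm21762 and Dis3l2 were added after their values were seen. The members and the gene lists were chosen with earlier results of these data known. Alternatives were a pooled design, other filters, a pseudocount of 0.1, median centring, quantile normalization, no trend, a replicate block and leaving out each library. Summing FPKM over the entries of a symbol and leaving out genes with a 0 were added after seeing the data. Promoters and coordinates are RefSeq GRCm38.p6. Python 3.11.15, pandas 2.3.3 and matplotlib 3.10.9 were used.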

Additional observations from a re-analysis of the deposited data

Results flagged for a closer look

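The interaction of pTα loss and Id loss (the effect of pTα loss with Id loss minus that without it) differed from 0 for 6 genes in limma, which is a difference of the pTα effect between Id-deficient and Id-sufficient cells. In each case 1 genotype stood apart from the other 3. For every gene but Gm8730 that genotype was pTαKO, which was 1 library. Its spread between mice was not measured, so these calls cannot tell the genotype from that library. Rn18s-rs5 was 12.92 and 12.73 in LP, 12.27 and 12.85 in L-DKO, 0 in pTαKO and 12.97 in WT, with an interaction of 13.24 (adjusted p = 0.00523). Yam1 was 10.62 and 10.48 in LP, 9.89 and 10.48 in L-DKO, 0 in pTαKO and 10.57 in WT, with an interaction of 10.94 (adjusted p = 0.00523 in limma). AC034285.4 and AC034285.2 were also listed at 0 in pTαKO, with interactions of 12.39 (adjusted p = 0.00523) and 11.59 (adjusted p = 0.0423). Tmcc3 was high in pTαKO alone, at 12.48, with an interaction of -8.89 (adjusted p = 0.00523). Gm8730 was 8.10 and 7.98 in LP, 3.90 and 4.00 in L-DKO, 7.89 in pTαKO and 8.55 in WT, with an interaction of 4.75 (adjusted p = 0.016), and so was low in L-DKO and not beyond the others in LP.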

How the results depend on the processing

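The counts of genes above and below all 4 other libraries lay between 961 and 1048 and between 968 and 1053 with no filter, median centring, quantile normalization or summed entries, and were 784 and 783 with a mean FPKM of at least 5. Of the 1042 genes above, 943 were shared after centring and 884 after quantile normalization. Leaving out 1 library gave 1321 to 2504 genes above and 1291 to 2433 below. The counts of limma calls for LP against the other genotypes, 5 upward and 2 downward, were 1 and 0 with the other libraries pooled, and 0 and 1 both with no trend and with genes listed at 0 in any library left out, while quantile normalization gave 3 upward. Leaving out 1 library gave 0 to 7 upward and 1 to 7 downward, with 0 upward and 1 downward without pTαKO. The interaction was called for 6 genes, for 14 with a replicate block, and for 4 to 15 when 1 LP or L-DKO library was left out. Same-numbered LP and L-DKO libraries did not deviate together (correlation 0.035), so their numbers were not treated as pairs, and the replicate block left 5 upward and 2 downward calls. With 1 library left out, the difference of Tmcc3 ranged between -4.228 and 0.155, turning round without pTαKO, and the difference of Fam120c ranged between -5.264 and 0.124, turning round without WT. Of 2095 differences of named genes under an alternative, 2046 kept direction and side of the threshold, 40 lost a call and 7 gained one. Nearly all of these genes were uncalled in the main fit, and a gene that stayed uncalled counted as kept. Most were also members by the rule, so this agreement was largely fixed in advance. The causes of the changes were not tested. Depth is unknown and limits low genes such as Zbtb16, Klrd1 and Il2rb, for which sampling noise cannot be given.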

Other observations

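Outside the lists, further protein-coding genes had both LP libraries at least 1 above all 4 others. They were picked after their values were seen. H2-Ob, a chain of the peptide-loading regulator H2-O, averaged 2.74 in LP cells against a sum of the single losses of 1.61. Pax7, a transcription factor of muscle precursors, averaged 2.12 against a sum of 0.77, and Slit3, a guidance ligand, averaged 3.21 against a sum of 0.93. Among genes below, the gene model G730046D07Rik averaged 0.68 in LP cells against a sum of 4.05. Of the 48 genes above with a gap of at least 1, 28 were named protein-coding genes, and 11 were listed at 0 in some library.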
